A study of Mus musculus with 12 samples.

Results

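Liver sinusoidal endothelial cells line the capillaries of the liver, and 10 genes that mark them or act on them were followed through the first day after partial hepatectomy. They are the sinusoidal markers Lyve1, Stab1 and Stab2, the pan-endothelial marker Pecam1, the growth factor Vegfa with its receptors Kdr and Flt1, the angiopoietin Angpt2 with its receptor gene Tek, and the ligand Wnt2. A probe belonged to a gene when the RefSeq identifier beside it in the array files mapped to that symbol, so the rule used no measured value. These are 10 of 19259 genes with a symbol on the array. The rule found 16 of the 37246 probes measured, 6 of them for Vegfa, 2 for Pecam1 and 1 for each other gene. Of these, 15 probes of 9 genes were among the 31168 probes well above background on at least 3 arrays, and the Wnt2 probe was not.

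The livers came from male C57BL/6 mice aged 6 weeks, and all groups had the same operation, removal of 2/3 of the liver. Groups were taken at 0, 1.5, 12 and 24 h after it, with 3 mice per time point according to the labels and 1 array per sample. The study was designed around long noncoding RNAs in the regenerating liver, and its 1-colour Agilent arrays also carry probes for messenger RNAs. No sham-operated mice were analysed here and the hour of the day at collection is not given in the sources used here, so effects of surgery or daily rhythm cannot be told apart from effects of hepatectomy. Whole liver RNA was measured, in which fewer cells of a type and less RNA per cell cannot be told apart.

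As background, sinusoidal endothelial cells are fenestrated and take up waste molecules through scavenger receptors such as the stabilins and Lyve1. VEGF-A, made largely by hepatocytes in the liver, signals to them through the kinase receptor Kdr, while Flt1 binds the same ligand with weaker signalling and can act as a decoy. Angpt2 is stored and released by endothelial cells and modulates Tie2, the receptor that Tek encodes. After hepatectomy, hepatocytes divide before the endothelium does, and the endothelium supplies angiocrine signals such as Hgf and Wnt2 to them.

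Values below are log2 processed signals relative to the 75th percentile of the same array. Levels of different probes are not set against each other, because probes differ in brightness at equal transcript amounts. One array stood apart. On 24 h replicate 2 the 75th percentile of the signal was 6018, against 428 to 584 on the other 11, and its median correlation with the other arrays was 0.906, against 0.942 to 0.961 for the others. Between 62.8% and 85.4% of spots per array were well above background, and all 10 hepatocyte markers were so at every time. The file headers give 4 scan times, and arrays with the same one were taken as scanned together. All 0 h arrays were scanned together with 1.5 h replicate 1. The other 1.5 h arrays shared a scan time with 12 h replicates 1 and 2, and 12 h replicate 3 shared one with 24 h replicates 1 and 3, while 24 h replicate 2 was scanned alone. No 12 h or 24 h array therefore shared a scan time with a 0 h array, and the scan can be separated from time only through the arrays that link the scans. Detection differed by scan. On 1.5 h replicates 2 and 3 and 12 h replicates 1 and 2, 82.0% to 85.4% of spots were well above background, against 62.8% to 72.4% on the others. The lowest signal called well above background was -6.19 to -5.91 on those arrays. On the others it was -5.14 to -4.26, except -6.38 on 24 h replicate 2. Its part in the changes of dim probes was not tested. Relative to the 75th percentile, the median probe of all kept probes was 0.42 higher at 12 h than at 0 h and 0.15 lower at 24 h. Over the 19894 kept coding probes alone, these medians were 0.24 and -0.06. The changes below should be read beside these shifts.

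Promoter sequence is shown for Vegfa and both receptor genes, because the ligand and Kdr fell at 12 h and Flt1 did not pass. Each run is the 250 bases before the annotated start in RefSeq on build GRCm38.p6, written 5′ to 3′ on the gene's strand, with GGAA or its reverse complement TTCC, the core of ETS factor motifs, in capitals. The windows are chr17:46032378-46032627, chr5:75978456-75978705 and chr5:147726012-147726261, all on the minus strand.
Vegfa: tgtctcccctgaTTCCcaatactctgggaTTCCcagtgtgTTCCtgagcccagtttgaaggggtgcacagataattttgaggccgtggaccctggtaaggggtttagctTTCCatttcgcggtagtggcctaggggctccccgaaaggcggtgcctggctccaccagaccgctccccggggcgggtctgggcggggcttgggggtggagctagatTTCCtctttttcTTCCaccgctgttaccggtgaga
Kdr: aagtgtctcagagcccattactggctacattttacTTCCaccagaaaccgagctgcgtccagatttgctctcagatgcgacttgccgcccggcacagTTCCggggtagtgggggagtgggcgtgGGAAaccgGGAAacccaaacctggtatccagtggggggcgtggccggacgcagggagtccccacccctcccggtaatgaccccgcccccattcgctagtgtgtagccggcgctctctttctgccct
Flt1: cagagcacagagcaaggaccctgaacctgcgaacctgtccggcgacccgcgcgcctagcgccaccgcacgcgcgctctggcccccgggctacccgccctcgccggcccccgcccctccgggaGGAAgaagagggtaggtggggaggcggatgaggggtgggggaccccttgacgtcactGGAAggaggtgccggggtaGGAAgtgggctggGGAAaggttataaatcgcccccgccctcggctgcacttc
For Vegfa the table also holds a window at a downstream start, chr17:46025164-46025413, and the one at the upstream start is printed. The printed Vegfa window held 6 matches and the other Vegfa window held 2, and the Kdr and Flt1 windows held 4 each. Of 32851 such windows in the RefSeq table, 93.4% held at least 1 match on either strand, with a median of 3, 33.4% held at least 4 and 8.69% held at least 6. ACGTG, the core of the hypoxia response element, was in none of the 3 printed windows on either strand, once in the downstream Vegfa window and in 16.6% of all windows. These matches describe the sequence and say nothing of which factors bound there.

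At 12 h after hepatectomy the genes split into those that rose, those that fell and those that did not pass the test. Lyve1 and Angpt2 rose 10.2-fold and 2.44-fold, Kdr fell 5.54-fold, and all 6 Vegfa probes fell 2.50-fold to 2.78-fold. The test was limma over all kept probes with Benjamini-Hochberg adjustment at 0.05. Of the 15 probes, 9 passed at 12 h against 0 h, and 15.3% of all kept probes did (49.2% without 24 h replicate 2, where the same 9 passed). At 1.5 h no member probe passed with limma, and 7 of all kept probes did, 0.0225% (0.594% without that array). No member probe had an unadjusted p under 0.05 there (lowest 0.271), and 2000 of all kept probes did. At 24 h against 0 h, 2 of the 15 passed, both higher, beside 5.46% of all probes. Without 24 h replicate 2 that number was 11, of which 4 were higher and 7 lower, beside 17% of all probes. The median log2 fold change of the 15 probes against 0 h was -0.29 at 12 h, beside 0.42 over all kept probes. It was -0.15 beside 0.17 for the 1.5 h arrays and -0.48 beside -0.15 for the 24 h arrays. Over kept coding probes alone the medians were 0.07, 0.24 and -0.06 at 1.5, 12 and 24 h. Vegfa contributes 6 of the 15 probes behind the member counts and medians, and Pecam1 contributes 2. By gene, of 9, 2 rose and 2 fell at 12 h in both fits. At 24 h against 0 h, 2 genes rose and 0 fell with all arrays. Without 24 h replicate 2, 3 genes rose and 2 fell.

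**Figure D1:**
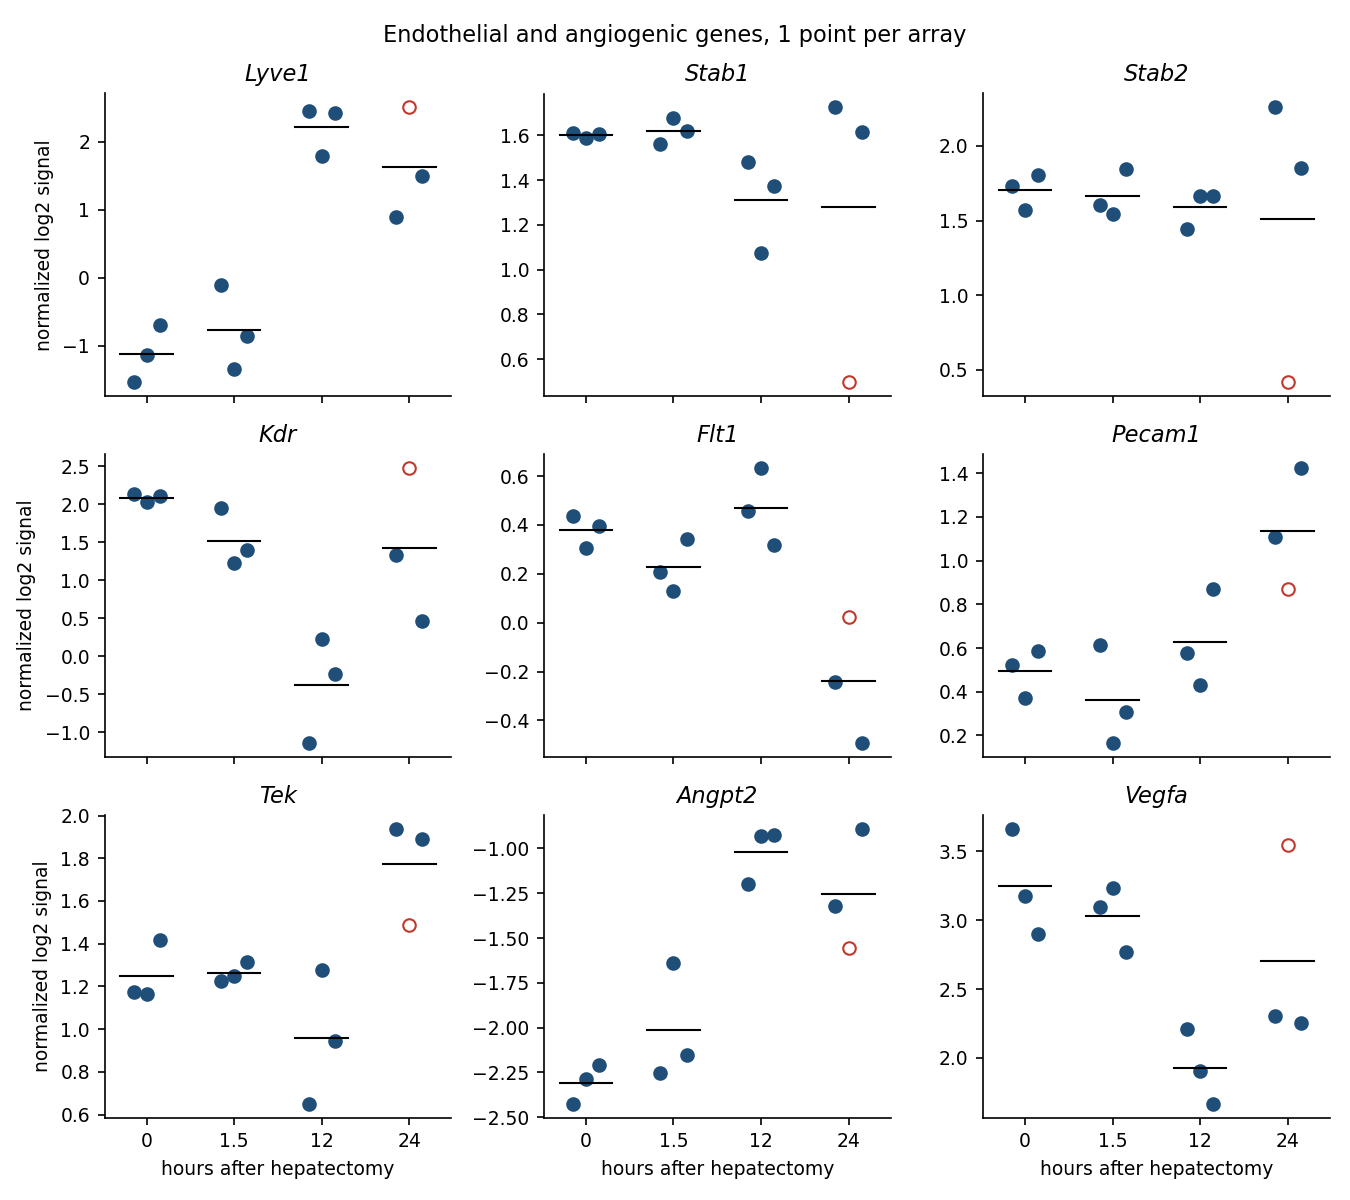
Normalized log2 signal (y axis, relative to the 75th percentile of the array) of 9 genes on 12 arrays at 0, 1.5, 12 and 24 h after hepatectomy (x axis), with the brightest probe where a gene has several. Points are arrays, bars are means of 3 arrays and the open red circle is 24 h replicate 2. Each panel has its own y axis. At 12 h Lyve1 and Angpt2 lay above, and Kdr and Vegfa below, every 0 h array.

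Lyve1, a hyaluronan receptor of sinusoidal and lymphatic endothelium, read -1.54, -1.14 and -0.70 at 0 h, -0.10, -1.35 and -0.86 at 1.5 h, 2.45, 1.80 and 2.43 at 12 h, and 0.89, 2.51 and 1.49 at 24 h. The 0 h and 1.5 h arrays overlapped, and every 12 h and 24 h array lay above all of them. The change at 12 h was 3.35 ± 0.45 (log2 fold change ± SE from limma, adjusted p = 0.00107), and it passed in all 23 alternative settings, with log2 changes of 2.50 to 4.25. At 24 h it was 2.76 ± 0.45 (limma, adjusted p = 0.00806), a 6.75-fold rise, and 4.98-fold without 24 h replicate 2 (limma, adjusted p = 0.00537). Levels at 24 h and 12 h differed by -0.60, with a 95% interval of -1.59 to 0.40, and did not pass. With 24 h replicate 2 left out, both remaining 24 h arrays lay below the 12 h arrays, and the difference was -1.03, with an interval of -1.91 to -0.16 (limma, adjusted p = 0.0915). Among arrays scanned together, Lyve1 was 3.23 higher on the 12 h pair than on the 1.5 h pair, and 1.02 higher on the single 1.5 h array than on the 0 h arrays. With the scan as a fixed block the 12 h change was 4.25 (limma, adjusted p = 0.0109) and the 24 h change was 3.01 (limma, adjusted p = 0.153), so the call at 24 h was lost.

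Lyve1 is also expressed by lymphatic endothelium and by some macrophages, and their markers were read beside it. The summed level of 4 lymphatic endothelial genes lay at 87.4% to 92.7% of the 0 h mean on the 12 h arrays, against 89.2% to 112% on the 0 h arrays, and at 70.7% to 94.1% at 24 h. The 4 include Reln, which is also among the stellate cell markers used below. Their sum is therefore not specific to lymphatic endothelium. Of these 4, Pdpn, a mucin-like membrane protein of lymphatic vessels, was not well above background on any 0 h array. In the main fit it was at least 4.22-fold higher at 24 h (limma, adjusted p = 0.0317). That call was weak: 12 of the 21 alternatives run for it kept it, with log2 changes of 0.44 to 3.46. It was lost without any 1 of the 0 h arrays, with normexp background correction and with either scan block. The summed level of 12 Kupffer cell and macrophage markers lay at 73.0% to 109% at 12 h and 116% to 185% at 24 h, against 79.4% to 134% at 0 h. Their part in the Lyve1 result was not tested.

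The stabilins, scavenger receptors that define sinusoidal endothelium, did not pass in any contrast with limma. Stab1 read 1.61, 1.59 and 1.61 at 0 h, 1.56, 1.68 and 1.62 at 1.5 h, 1.48, 1.07 and 1.37 at 12 h, and 1.72, 0.50 and 1.61 at 24 h. All 3 of its 12 h values lay below the 0 h values, yet the difference was -0.29 with a 95% interval of -0.99 to 0.40. Stab2 read 1.73, 1.57 and 1.81 at 0 h, 1.60, 1.55 and 1.84 at 1.5 h, 1.44, 1.66 and 1.66 at 12 h, and 2.26, 0.42 and 1.86 at 24 h. Its 12 h difference was -0.11, with an interval of -0.99 to 0.76. At 24 h both genes depended on 1 array: Stab2 differed by -0.19 from 0 h with 24 h replicate 2 and by 0.35 without it (interval -0.09 to 0.80), and Stab1 by -0.32 with the array and 0.07 without it (interval -0.34 to 0.47).

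Pecam1, the adhesion molecule CD31 of all endothelium, was measured by 2 probes that correlated at 0.994 over the 12 arrays. Its brighter probe read 0.52, 0.37 and 0.59 at 0 h, 0.61, 0.16 and 0.31 at 1.5 h, 0.58, 0.43 and 0.87 at 12 h, and 1.11, 0.87 and 1.42 at 24 h. The 24 h arrays lay above all 0 h arrays and the 12 h arrays overlapped with them. At 24 h the 2 probes were 1.56-fold higher than at 0 h and did not pass (limma, adjusted p = 0.156 and 0.167). Without 24 h replicate 2 they rose 1.69-fold and 1.71-fold (limma, adjusted p = 0.0366 for both).

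Vegfa, the main ligand of the endothelial VEGF receptors, read 3.66, 3.18 and 2.90 at 0 h, 3.10, 3.24 and 2.77 at 1.5 h, 2.21, 1.90 and 1.66 at 12 h, and 2.31, 3.54 and 2.25 at 24 h with its brightest probe. The 12 h arrays lay below every 0 h and 1.5 h array, and at 24 h replicates 1 and 3 did so too while replicate 2 lay among the 0 h values. Its 6 probes, designed to different RefSeq transcripts, correlated at 0.969 or more and differed by at most 0.43 on an array, so no difference between transcripts was resolved. At 12 h their log2 changes lay between -1.48 and -1.32 (limma, adjusted p = 0.0291 to 0.0362), and between 12 and 14 of 23 alternative settings kept each call. All 6 calls were lost when any 1 of the 0 h or 12 h arrays was left out, for example at -1.11 (limma, adjusted p = 0.141) for the brightest probe without 0 h replicate 1. Without 24 h replicate 2, whose spread enters every contrast of the pooled fit, the same changes had adjusted p = 0.00154 to 0.00221 (limma). With the scan as a fixed block the brightest probe changed by -1.10 (limma, adjusted p = 0.194), and among arrays scanned together the 12 h pair differed from the 1.5 h pair by -0.95. At 24 h against 0 h no Vegfa probe passed with all arrays (limma, adjusted p = 0.356 to 0.490), and all 6 fell 1.88-fold to 2.06-fold without replicate 2 (limma, adjusted p = 0.0280 to 0.0393).

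Kdr encodes VEGF receptor 2, the principal signalling receptor for Vegfa on endothelium. It read 2.13, 2.02 and 2.11 at 0 h, 1.95, 1.22 and 1.40 at 1.5 h, -1.14, 0.23 and -0.23 at 12 h, and 1.33, 2.48 and 0.47 at 24 h. All 1.5 h and 12 h arrays lay below the 0 h arrays, and the 12 h arrays lay below every other array. The fall at 12 h was -2.47 ± 0.49 (limma, adjusted p = 0.00733), and 21 of 23 alternative settings kept the call. The settings that lost it were the scan as a fixed block, with a log2 change of -1.91 (limma, adjusted p = 0.152), and as a random block, with -1.89 (limma, adjusted p = 0.0614). Among arrays scanned together, the 12 h pair differed from the 1.5 h pair by -1.77. The 1.5 h difference from 0 h was -0.57, with an interval of -1.64 to 0.51, and did not pass.

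By 24 h Kdr stood 1.81 above its 12 h level (limma, adjusted p = 0.0403), a 3.50-fold rise, beside 13% of all probes past the threshold in that contrast. It was the only member probe past it, and 7 of 23 alternatives kept the call. It was lost without any 1 of the 0 h arrays, the 12 h arrays, 1.5 h replicates 2 or 3, or 24 h replicates 1 or 2 (limma, adjusted p = 0.0529 to 0.154), and the rise was 1.28 without 24 h replicate 2. Against 0 h, Kdr differed at 24 h by -0.66 with an interval of -1.74 to 0.41, and by -1.19 with an interval of -2.07 to -0.31 without replicate 2 (limma, adjusted p = 0.0660).

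Flt1 encodes VEGF receptor 1. It read 0.44, 0.30 and 0.39 at 0 h, 0.21, 0.13 and 0.34 at 1.5 h, 0.46, 0.63 and 0.32 at 12 h, and -0.24, 0.02 and -0.49 at 24 h. At 12 h it overlapped with 0 h and differed by 0.09, with an interval of -0.41 to 0.59 that excludes a fall of the size Kdr showed. Every 24 h array lay below every array of the other times. The 24 h difference from 0 h was -0.61 (limma, adjusted p = 0.146) with all arrays, and -0.75 without replicate 2 (limma, adjusted p = 0.0226), a 1.68-fold fall. Against 12 h it was -0.71 with all arrays (limma, adjusted p = 0.0580), and it passed at -0.84 without replicate 2 (limma, adjusted p = 0.0160), where 15.8% of all probes passed. The difference between the Kdr and Flt1 changes was not tested.

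Angpt2, the endothelial ligand that modulates Tie2, read -2.43, -2.29 and -2.21 at 0 h, -2.26, -1.64 and -2.15 at 1.5 h, -1.20, -0.93 and -0.93 at 12 h, and -1.32, -1.56 and -0.89 at 24 h. Every 12 h and 24 h array lay above every 0 h array. The rise at 12 h was 1.29 ± 0.26 (limma, adjusted p = 0.00863), and 20 of 23 alternatives kept it. It was lost with normexp background correction, at 0.94 (limma, adjusted p = 0.274), and with the scan as a fixed or a random block, at 0.88 and 0.94 (limma, adjusted p = 0.217 and 0.0939). At 24 h the rise was 1.05 ± 0.26, or 2.07-fold (limma, adjusted p = 0.0433), and 2.30-fold without replicate 2 (limma, adjusted p = 0.00973). The 24 h call was lost without any single array other than 24 h replicate 2 (limma, adjusted p = 0.0534 to 0.175). Within scans, Angpt2 lay 0.83 higher on the 12 h pair than on the 1.5 h pair.

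Tek, whose product Tie2 is the receptor of the angiopoietins, read 1.17, 1.16 and 1.42 at 0 h, 1.22, 1.25 and 1.31 at 1.5 h, 0.65, 1.28 and 0.94 at 12 h, and 1.94, 1.49 and 1.89 at 24 h. The 24 h arrays lay above all others, and the remaining times overlapped. With all arrays the 24 h difference was 0.52 from 0 h (interval -0.02 to 1.06) and 0.81 from 12 h (limma, adjusted p = 0.0508). Without 24 h replicate 2 the rise from 12 h was 1.94-fold and passed (limma, adjusted p = 0.0162), and the difference from 0 h was 0.66 (limma, adjusted p = 0.0560).

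**Figure D2:**
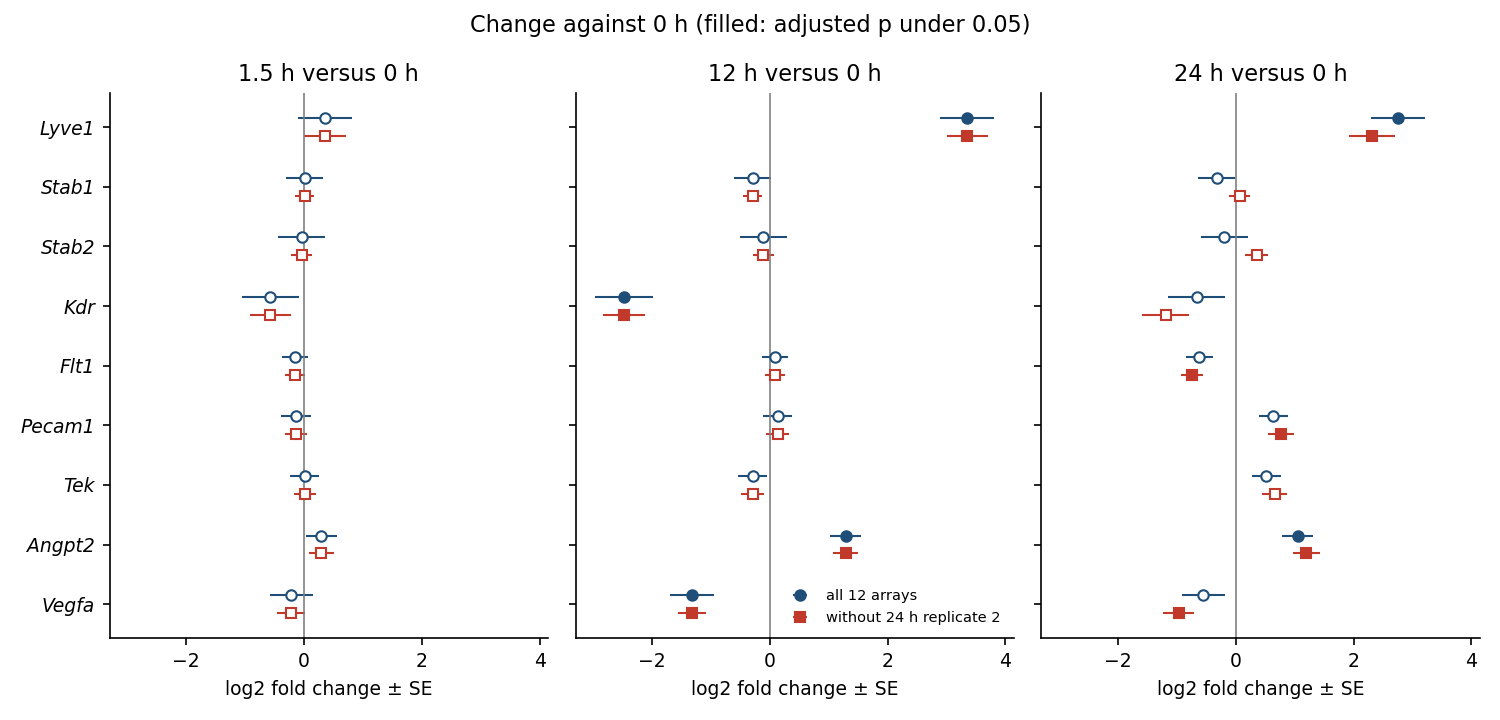
Log2 fold change ± SE against 0 h (x axis) of 9 genes (y axis, brightest probe) at 1.5, 12 and 24 h, from limma on all 12 arrays (blue circles) and without 24 h replicate 2 (red squares). Filled symbols have an adjusted p under 0.05. At 12 h both fits mark Lyve1, Kdr, Angpt2 and Vegfa, and at 24 h the fit without replicate 2 also marks Flt1, Pecam1 and Vegfa.

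Wnt2, a ligand that sinusoidal endothelium is known to produce, was not well above background on any of the 12 arrays. Its signal read -8.47 to -6.07. On 11 arrays this lay 0.92 to 2.33 under the lowest signal called well above background there, and on 24 h replicate 2 it lay 0.03 above it. No fold is given, and a change of Wnt2 was not detectable with this probe.

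Over the whole day, limma's F test for a difference from 0 h at any time passed 3 of the 15 probes, those of Lyve1, Kdr and Angpt2, beside 16.2% of all kept probes. Without 24 h replicate 2 it passed 13, all but the Stab1 and Stab2 probes, beside 44.3%. As a description over the 11 other arrays, which share time points and scans, Vegfa correlated with Lyve1 at r = -0.93, with Angpt2 at -0.89 and with Kdr at 0.79. With all 12 arrays these were -0.63, -0.79 and 0.82. The named coding genes whose pattern was most like that of Kdr over the 11 arrays were Itgb5 (r = 0.99), Glyat (0.98) and Cbx7 (0.98), out of 16544 candidates. Over all 12 arrays these were 0.99, 0.95 and 0.98. For Vegfa they were Pan2 (0.98), Primpol (0.97) and Ggnbp1 (0.96), with 0.79, 0.72 and 0.56 over all 12 arrays. For Angpt2 they were Hrct1 (0.98), Psme3ip1 (0.97) and Fbn2 (0.97), with 0.91, 0.74 and 0.90 over all 12 arrays. Stab2, which read 1.44 to 2.26 on those 11 arrays, was most like Cmbl (0.93), Prxl2c (0.91) and Chid1 (0.90). Over all 12 arrays these fell to 0.37, -0.04 and 0.64.

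The counts of the wider gene lists at 12 h stand beside 15.3% of all kept probes past the threshold with all arrays and 49.2% without 24 h replicate 2. The medians stand beside 0.42 over all kept probes and 0.24 over the coding probes among them. At 24 h against 12 h these medians were -0.49 and -0.14. Among the other genes of the VEGF and semaphorin system, 2 of 10 rose at 12 h and 2 fell, with a median log2 change of 0.46. Nrp1, the neuropilin co-receptor of Kdr, read 5.14, 3.68 and 4.47 at 12 h, against 2.36, 1.94 and 2.26 at 0 h. It rose 4.74-fold (limma, adjusted p = 0.00914). Sema3f, a neuropilin ligand, rose 2.85-fold (limma, adjusted p = 0.00359). Plxnd1, the semaphorin receptor plexin D1, read -0.23, 0.26 and -0.94 at 12 h, against 1.72, 1.44 and 1.71 at 0 h, a 3.80-fold fall (limma, adjusted p = 0.00205). Without 24 h replicate 2, 5 of the 10 rose and 3 fell. Plxnd1 was 3.27-fold higher at 24 h than at 12 h (limma, adjusted p = 0.0104).

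Of 9 genes of the angiopoietin and Tie system other than Angpt2 and Tek, 1 rose and 2 fell at 12 h (1 and 5 without 24 h replicate 2), with a median of -0.93 beside 0.42 over all probes. Angptl2, an angiopoietin-like secreted protein, read -1.22, -2.14 and -1.77 at 12 h, against 0.95, 1.21 and 1.03 at 0 h. It fell 6.85-fold (limma, adjusted p = 0.000501). Angptl4, a secreted inhibitor of lipoprotein lipase, rose 2.26-fold (limma, adjusted p = 0.0211). Angptl2 and Angptl4 do not act through Tie2. At 24 h, Angptl2 was 3.58-fold lower than at 0 h (limma, adjusted p = 0.0111), and Ptprb, the phosphatase that dampens Tie2, was 2.22-fold lower (limma, adjusted p = 0.0468). The Ptprb call was kept in only 8 of 23 alternatives. Angpt1, the main activating ligand of Tie2, did not pass at 12 h, at -1.02 (limma, adjusted p = 0.147), and fell without 24 h replicate 2 (limma, adjusted p = 0.0113). It was named after its values were seen.

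Of 8 Notch pathway genes, 1 fell at 12 h: Dll4, the Notch ligand of endothelial tip cells, read -2.64, -2.41 and -3.07 at 12 h, against -1.04, -0.91 and -0.85 at 0 h. The fall was 3.43-fold (limma, adjusted p = 0.00431), and the median of the list was -0.08. At 24 h Dll4 was 2.23-fold and its Notch target Hey1 1.91-fold higher than at 12 h (limma, adjusted p = 0.0412 and 0.0415), calls kept in 10 and 7 of 23 alternatives, and the median of the list was 0.03.

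Among 19 other sinusoidal endothelial markers, 2 rose and 4 fell at 12 h, with a median of -0.21, and 6 rose and 6 fell without 24 h replicate 2. Dpp4, a membrane peptidase, read -1.92, -2.14 and -2.19 at 12 h, against 0.41, 0.44 and 0.46 at 0 h, a 5.75-fold fall (limma, adjusted p = 0.000314). Ehd3, a membrane trafficking protein, fell 2.98-fold (limma, adjusted p = 0.0123). Icam1, a leukocyte adhesion molecule, rose 3.65-fold (limma, adjusted p = 0.00395). At 24 h Icam1 and the fatty acid transporter Cd36 were 2.64-fold and 3.79-fold higher than at 0 h (limma, adjusted p = 0.0338 and 0.00208), and Dpp4 was 3.22-fold lower (limma, adjusted p = 0.00750). The mannose receptor Mrc1 and the tight junction gene Cldn5 were 2.82-fold and 1.92-fold higher at 24 h than at 12 h (limma, adjusted p = 0.0130 and 0.0350). Hepatocytes express Dpp4, and several of these genes are not restricted to endothelium. The summed level of the list lay at 67.8% to 89.0% of the 0 h mean at 12 h, against 97.8% to 102% at 0 h, and at 86.0% to 113% at 24 h.

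Of 28 general endothelial genes 3 rose and 3 fell at 12 h (8 and 7 without 24 h replicate 2), with a median of 0.02 beside 0.42 over all probes. Cd93, an endothelial and myeloid surface protein, rose 2.75-fold (limma, adjusted p = 0.0102). Adgrl4, an endothelial adhesion receptor, fell 2.97-fold (limma, adjusted p = 0.00275), as did Esm1, a secreted product of endothelial tip cells, 3.12-fold and just past the threshold (limma, adjusted p = 0.04997). Esm1 was well above background on 10 of 12 arrays, and lost its call in 9 of the fits that left out 1 array. Relative to 12 h, Esm1 and the sphingosine receptor S1pr1 at 24 h were 4.74-fold and 3.07-fold higher (limma, adjusted p = 0.0243 and 0.0211), while Nos3, the endothelial nitric oxide synthase, was 2.36-fold lower (limma, adjusted p = 0.0408). The summed level of these 28 genes lay at 86.9% to 96.9% of the 0 h mean at 12 h, against 88.8% to 107.1% at 0 h, within the range of the 0 h arrays except for 1 array at the low end.

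Of 19 angiocrine and regeneration signals 5 rose and 1 fell at 12 h (10 and 2 without 24 h replicate 2), with a median of 0.85 beside 0.42 over all probes. Hgf, the hepatocyte growth factor that endothelial and stellate cells make, read -1.80, -1.69 and -1.80 at 12 h, against -4.29, -4.49 and -4.08 at 0 h. It rose 5.76-fold at 12 h and 6.79-fold at 24 h (limma, adjusted p = 0.000551 and 0.000866). On the 0 h arrays the lowest signals called well above background were -4.50, -5.12 and -4.90. Hgf lay near that limit there, so the size of its rise is uncertain. Over the 21 alternatives run for it, its log2 change was 1.35 to 2.63 at 12 h and 1.08 to 3.05 at 24 h. The 24 h call was lost with normexp background correction and with the scan as a fixed block. Id1, a transcriptional regulator of the angiocrine programme, rose 4.00-fold, and Klf4, a flow-responsive factor, rose 3.77-fold at 12 h (limma, adjusted p = 0.00675 and 0.0132). At 24 h against 12 h, Id1 and the matrix protease Mmp9 were 3.47-fold and 2.41-fold lower (limma, adjusted p = 0.0218 and 0.0380), and the chemokine Cxcl12 was 5.61-fold higher (limma, adjusted p = 0.00308).

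Although Wnt2 itself was not measurable, a list of Wnt target genes and pericentral hepatocyte genes was followed. Their link to Wnt signals from the endothelium was not tested. Of 16 such genes 3 fell at 12 h with all arrays, and 1 rose and 5 fell without 24 h replicate 2, with a median of -0.29 beside 0.42 over all probes. Lgr5, the receptor of R-spondins, read -4.15, -3.80 and -4.69 at 12 h, against -0.76, -1.48 and -1.80 at 0 h. It fell 7.30-fold (limma, adjusted p = 0.00131), and Rnf43 and Znrf3, ubiquitin ligases that remove Wnt receptors, fell 7.24-fold and 2.81-fold (limma, adjusted p = 0.00692 and 0.0141). Lgr5, Rnf43 and the transcription factor Tbx3 were 9.57-fold, 5.20-fold and 4.85-fold higher at 24 h than at 12 h (limma, adjusted p = 0.00295, 0.0276 and 0.0265). Lgr5 was well above background on 2 of the 3 arrays at 12 h, so the size of its changes is uncertain. With normexp background correction it differed by -0.74 at 12 h against 0 h and by 0.85 at 24 h against 12 h, and neither passed (limma, adjusted p = 0.751 and 0.199). Cyp1a2, a pericentral cytochrome, fell 7.07-fold at 24 h against 0 h (limma, adjusted p = 0.000290).

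Vegfa is a known target of hypoxia signalling, and 19 genes of that pathway were read beside it. At 12 h 5 rose and 1 fell (7 and 2 without 24 h replicate 2). Their median was 0.32, beside 0.42 over all probes and 0.24 over coding probes. The stress gene Ddit4 rose 4.40-fold and Hif1a, the oxygen-regulated factor, 3.42-fold (limma, adjusted p = 0.0269 and 0.0210). Pdk1, a mitochondrial kinase that slows entry of pyruvate into respiration, was the gene that fell with all arrays. It was named after its values were seen. The summed level of the 19 genes lay at 203% to 290% of the 0 h mean at 12 h, against 95.3% to 108% at 0 h. At 24 h it lay at 110% to 151%. A link between these genes and the fall of Vegfa was not tested.

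**Figure D3:**
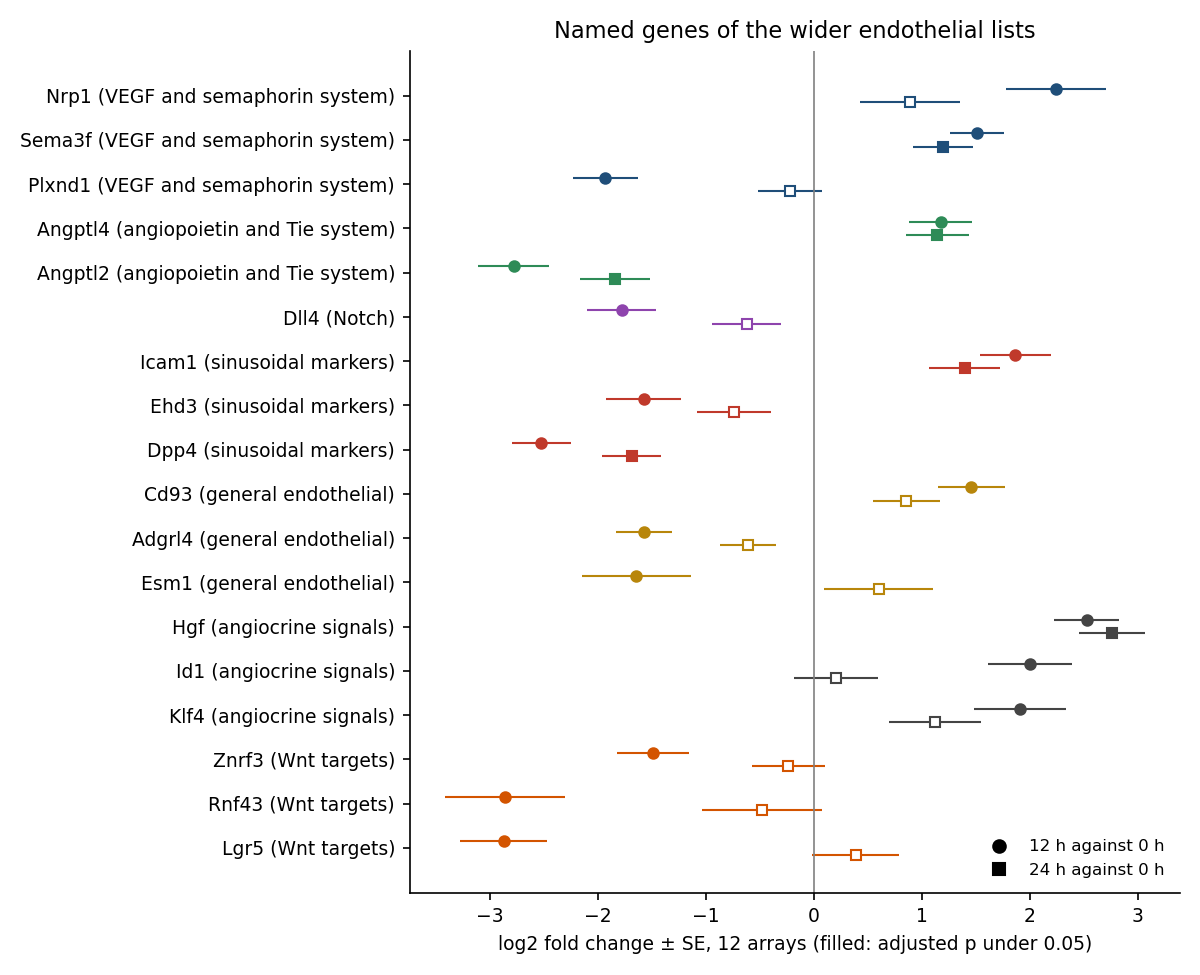
Log2 fold change ± SE against 0 h (x axis) of named genes of the wider endothelial lists (y axis), from limma on 12 arrays, at 12 h (circles) and 24 h (squares), filled where the adjusted p was under 0.05. Nrp1, Icam1, Hgf and Id1 rose at 12 h, and Plxnd1, Dll4, Dpp4, Lgr5 and Rnf43 fell. The Sema3f value of 24 h replicate 2 was missing.

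Leaving out 24 h replicate 2 kept all named changes of these lists past the threshold except Cd163 and the platelet gene Gp9 at 24 h against 12 h. Of 71 named list changes 32 kept their call in every fit that left out 1 array, among them at 12 h Nrp1, Plxnd1, Dll4, Angptl2, Dpp4, Icam1, Cd93, Adgrl4, Hgf, Id1, Lgr5 and Rnf43. With the scan as a fixed block 22 kept it, of the genes just named only Dpp4 and Hgf. With normexp background correction Dpp4 and Hgf lost it (limma, adjusted p = 0.102 and 0.122), and of the same genes only Nrp1, Plxnd1 and Angptl2 kept it. Over all alternatives run, 6 of the 71 changes never lost their call. Other calls were held weakly. At 24 h against 12 h, those of Cldn5 and Mmp9 were each kept in 10 of 23 alternatives and that of Nos3 in 11. The 24 h rise of Icam1 against 0 h was kept in 12. Of the Kupffer cell markers named below, the 12 h falls of Csf1r and Vsig4 were kept in 10 and 8.

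Markers of other cells in the liver were read for the same arrays. Neutrophil genes rose most: 6 of 9 at 12 h, with a summed level of 1565% to 2006% of the 0 h mean at 12 h, against 84.1% to 115% at 0 h, and 1330% to 2089% at 24 h. S100a8 and S100a9, neutrophil calcium-binding proteins, rose 30.6-fold and 29.5-fold at 12 h (limma, adjusted p = 1.41e-05 and 1.48e-05), and were 7.95-fold and 7.50-fold higher by 1.5 h (limma, adjusted p = 0.00907 and 0.00955). The 1.5 h calls were kept in 16 and 17 of 23 alternatives. Both were lost with normexp background correction, and without 0 h replicate 1, 0 h replicate 3 or 1.5 h replicate 3. Ngp, a granule protein, was not well above background at 0 h and was at least 20.2-fold higher at 12 h (limma, adjusted p = 0.000972). Of 12 Kupffer cell markers, the scavenger receptor Marco rose 5.42-fold at 12 h, and the receptors Csf1r and Vsig4 fell 2.41-fold and 2.10-fold (limma, adjusted p = 0.00814, 0.0381 and 0.0453). Of 11 stellate cell markers only the retinol enzyme Lrat passed at 12 h with all arrays (2 higher and 3 lower without 24 h replicate 2), at 3.73-fold lower (limma, adjusted p = 0.0209).

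Hepatocyte markers had a summed level of 112% to 194% of the 0 h mean at 12 h, against 97.5% to 104% at 0 h, and 46.9% to 96.6% at 24 h, the lowest on 24 h replicate 2. Of 10, Fgb, the fibrinogen beta chain, rose 4.75-fold and Ttr, transthyretin, fell 3.80-fold at 12 h (limma, adjusted p = 0.00511 and 0.00160). Neutrophils and monocytes also express Icam1 and Cd93, and hepatocytes express Vegfa. The part of these cells in the changes of the endothelial and angiogenic genes was not tested.

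**Figure D4:**
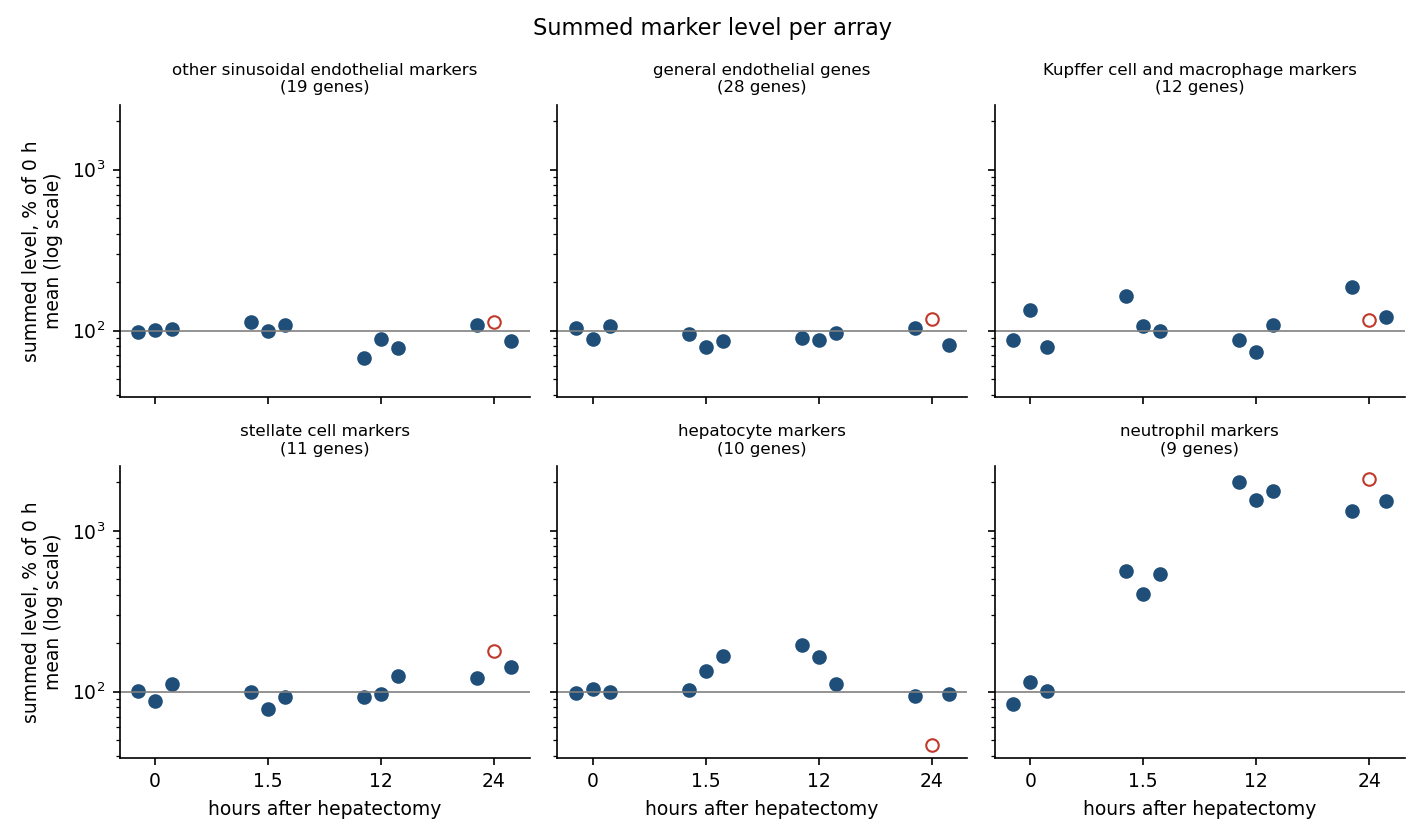
Summed normalized signal of 6 marker lists per array, as percent of the mean of the 0 h arrays (y axis, log scale), at 0, 1.5, 12 and 24 h after hepatectomy (x axis). Points are arrays and the open red circle is 24 h replicate 2. Neutrophil markers stood between 1330% and 2089% at 12 and 24 h, while the endothelial lists stayed between 67.8% and 118% on all arrays.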

How the data were processed

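Total RNA of 12 liver samples was hybridised to 1-colour (Cy3) Agilent arrays, 3 arrays per time point. Per the file headers and the submitters' processing notes, the scans were quantified in Agilent Feature Extraction 10.5.1.1. The deposited files hold processed spot intensity, background-subtracted on a linear scale. The authors also deposited log2 values for 20271 probes, whose normalization is not given in the sources used here, so they served as an alternative. The array design refers to mouse build mm9 per the file headers, and promoters come from GRCm38.p6.

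Of 39448 spots per array, 37831 were not controls and gave 37246 probes after negative-control probes were dropped. Outlier spots (862 over all arrays) were left out and spots of 1 probe averaged. Values are log2 intensity minus the 75th percentile of the array, for 31168 probes well above background on at least 3 arrays. No probe was saturated. Symbols came from a RefSeq table by accession (22216 probes matched). limma 3.58.1 in R 4.3.3 fitted 1 mean per time point to 12 arrays with empirical Bayes moderation, two-sided, adjusted by Benjamini-Hochberg at 0.05, and the script was tested on simulated data. The number of arrays limits the precision. The p-values measure the spread between arrays, which the labels tie to 3 mice per time point without saying which array is which mouse.

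The members and the lists were chosen with earlier results of these data known. From each list and contrast up to 3 genes past the threshold with the largest change are named, by the brightest probe, and some list genes that the rule picks are not reported here although the counts include them. The 23 alternatives were normexp background correction (offset 50), quantile normalization, the authors' values, 2 other filters, robust moderation, array weights, replicate, fixed and random scan blocks, a fit to 2 groups alone, and dropping 1 array at a time. They were extended to the named list genes after the data had been seen. The labels do not say whether replicate numbers pair the samples, and the main fit used no pairing. Over 18 pairs of arrays with 1 number, deviations from the group means correlated at -0.42 to 0.41, with 2 over 0.1. With 3 arrays per group and scan times that differ among them, these values cannot settle whether the numbers pair mice.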

Additional observations from a re-analysis of the deposited data

How the results depend on the processing

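Of 1380 values of member probes under alternatives, 1246 kept their side of the threshold, 96 lost the call, 35 gained it and 3 turned. Those 3 arose with array weights: Stab2 at 24 h against 0 h (0.54), and Stab1 (0.36) and Stab2 (0.72) at 24 h against 12 h. Of the 1246, 37 changed sign without passing either way. With normexp background correction, 3 list values turned: Esm1 at 12 h against 0 h (0.0906) and at 24 h against 12 h (-0.35), and Hey1 at 24 h against 12 h (-0.62). The cause was not tested. The weights gave 24 h replicate 1 22.3 and replicate 2 0.0331, so that fit rests largely on 1 array at 24 h.

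Counts are given in the order 1.5 h, 12 h and 24 h against 0 h, then 24 h against 12 h, where they moved by over 1.5 times. Over all probes, normexp gave 2, 673, 189 and 191. Array weights gave 13169, 19808, 16340 and 19530. The scan as a fixed block gave 17, 1295 and 83, with no move in the last, and as a random block 64, 2619 and 299. A fit to the 2 groups alone gave 0, 15587, 121 and 0. At 1.5 h the authors' values gave 20, the filter on all 12 arrays 17 and robust moderation 15, and at 24 h against 12 h no filter gave 2591. Of the member probes at 12 h, normexp kept 2 and either scan block 1. At 24 h against 0 h, normexp, no filter and the random scan block kept 1, the fixed scan block and the fit to 2 groups 0, and array weights 14. At 24 h against 12 h the counts were 0 with normexp, no filter, the fixed scan block and the fit to 2 groups, 2 with quantile normalization, the authors' values and the random scan block, 3 with the filter on all 12 arrays and robust moderation, and 8 with array weights.

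The replicate block moved the count of all probes to 0 at 1.5 h and to 1261 at 24 h against 12 h, and that of member probes to 1 at 24 h against 0 h and to 0 at 24 h against 12 h. It kept 9 at 12 h. Leaving out 1 array in turn gave 0 to 185, 2246 to 15342, 415 to 5288 and 384 to 10798 over all probes, and 0 to 0, 3 to 9, 1 to 11 and 0 to 2 member probes. The upper ends at 12 h and 24 h against 0 h over all probes, and at 24 h against 0 h for the members, came without 24 h replicate 2, as did 185 at 1.5 h. The value 10798 came without 24 h replicate 3 and 384 without 12 h replicate 1. The 3 member probes at 12 h, those of Lyve1, Kdr and Angpt2, came without any 1 of the 0 h or 12 h arrays. A low signal limits Wnt2 in particular.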
